A study of Mus musculus with 16 samples.

Results

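The genes described are 47 mitotic genes of the mouse, taken by symbol for their roles in separase and securin, cohesin, the spindle checkpoint, the chromosomal passenger complex, mitotic kinases and cyclins, partners of the anaphase-promoting complex, kinetochore proteins, kinesins and condensin. Each of the 47 symbols matched 1 of the 47937 gene identifiers in the count tables, and all 47 genes passed the filter on low counts, a mean above 100 counts in any group. The question asked of them was whether Espl1, the gene of separase, was lower alone or together with the other mitotic genes in progenitors of mice labelled KO for Ebf1, whose protein directs B cell development.

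Bulk RNA of 2 multipotent progenitor populations from mouse bone marrow was sequenced in 16 libraries from 8 C57BL/6 mice, each of which gave an MPP3 and an MPP4 library by its labels. Both populations were sorted as lineage-depleted LSK CD150- CD48+ cells, MPP4 cells with Flt3 on their surface in addition. MPP3 cells are biased to myeloid and MPP4 cells to lymphoid fates. The labels gave the genotype Ebf1fl/fl Tie2Cre+/+ to the 4 WT mice and Ebf1fl/fl Tie2Cre +/cre to the 4 KO mice, so that floxed alleles were shared by all groups and the Cre transgene, driven by the promoter of Tie2 in endothelium and blood stem cells, was the stated difference. The design text instead named unfloxed Ebf1 alleles with Tie2Cre as the control, and the methods of the study allowed either kind of littermate. WT mice 1 to 4 were female, female, male and male and were 12, 11, 12 and 11 weeks old, and KO mice 1 to 4 were male, male, female and female and were 10, 9, 11 and 11 weeks old.

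The libraries held 24823708 to 48703193 counts. Levels below are CPM, that is, counts scaled to the normalised library size, and the values of a group are given in the order of mice 1 to 4. Ebf1 itself stood at 0.15 to 2.23 CPM in the 8 MPP3 libraries. In MPP4 it stood at 3.32 to 6.19 CPM in the WT and at 17.6 to 24.9 CPM in the KO libraries, without overlap (edgeR FDR 0.188). These counts take in all exons of the gene, floxed or not, so they do not test the deletion, and the groups are called by their labels. Flt3, which separates the sort gates, stood at 205 to 313 CPM in MPP3 and at 939 to 1362 CPM in MPP4 libraries.

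In mitosis, sister chromatids are held together by the cohesin ring until separase cleaves its kleisin subunit Rad21. Separase is kept inactive by securin (Pttg1) and by cyclin B with Cdk1 until the anaphase-promoting complex, activated by Cdc20 once the spindle checkpoint is satisfied, marks securin and cyclin B for destruction. Most genes of this machinery are transcribed in G2 and M phase, and many of their promoters hold a CCAAT box and a TTTGAA element, the latter known as the cell cycle genes homology region. In bulk RNA, fewer cells in mitosis and less RNA of a gene per cell cannot be told apart.

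Promoters are shown to let this layout be seen next to the values, those of Espl1, of Ccnb2 (cyclin B2) and of Kif11 (a motor that pushes spindle poles apart). The sequences are from RefSeq on GRCm38.p6, in transcript direction, and end at the base before the RefSeq start. Capitals mark CCAAT or TTTGAA on either strand, so ATTGG and TTCAAA are the same motifs read on the other strand. The Espl1 stretch lies at chr15:102296173-102296292 (plus strand), the Ccnb2 stretch at chr9:70421555-70421674 (minus strand) and the Kif11 stretch at chr19:37376262-37376381 (plus strand).
Espl1: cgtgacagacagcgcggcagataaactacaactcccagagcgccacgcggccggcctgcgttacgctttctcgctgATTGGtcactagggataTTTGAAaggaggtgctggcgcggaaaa
Ccnb2: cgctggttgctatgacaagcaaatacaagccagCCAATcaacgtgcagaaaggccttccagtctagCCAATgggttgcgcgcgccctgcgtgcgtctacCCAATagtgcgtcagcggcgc
Kif11: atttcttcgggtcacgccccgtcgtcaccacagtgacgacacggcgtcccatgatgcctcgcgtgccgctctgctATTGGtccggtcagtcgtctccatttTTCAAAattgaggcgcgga

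Espl1 thus carried 1 match of each motif, the CCAAT match starting 44 and the TTTGAA match 27 bases before the RefSeq start. GENCODE places the Espl1 start 27 bases upstream of the RefSeq start, so that the TTTGAA letters begin at that start. Kif11 had the same order, with matches starting 45 and 19 bases before it. Ccnb2 held 3 CCAAT matches, and its TTTGAA matches lay outside the stretch, 167 bases before the start and at base 5 of the transcript. The Bub3 window held both motifs as well, but past the start that GENCODE gives, and is not shown.

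Promoter windows of 250 bases before and 50 bases after the start were at hand for 37 of the 47 genes, and none was found for Rad21, Stag2, Aurkb, Incenp, Ccna2, Cdc25c, Spc24, Kif20a, Tpx2 and Smc4. On either strand, CCAAT was found in 28 of the 37 windows (75.7%) and in 37.4% of all 32851 windows. TTTGAA was found in 23 of the 37 (62.2%) and in 17.9% of all windows, and both motifs together in 21 (56.8%) and in 6.95%. Matches of the 2 motifs overlapped once. CCCNNGGG, the core of the motif bound by EBF factors, was found in 3 of the 37 windows (8.11%), against 13.7% of all windows, and the letters were not in the Espl1 window.

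Espl1 (ENSMUSG00000058290) lies on chromosome 15 of GRCm38 at 102296266 to 102324357, on the plus strand. An annotated gene on the other strand, Gm49480, overlaps it without sharing exon bases. Espl1 had the lowest level per length of the 47 genes, 3.07 CPM per kb of exon over all libraries, where Ccnb2, at the top of the list, had 168 CPM per kb. Its smallest count in a library was 391.

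In MPP3 cells Espl1 stood at 41.0, 31.1, 20.9 and 22.4 CPM in the WT and at 15.2, 13.0, 14.1 and 16.7 CPM in the KO libraries. In MPP4 cells it stood at 44.8, 39.7, 35.3 and 37.5 CPM in the WT and at 26.5, 23.6, 24.6 and 22.8 CPM in the KO libraries. In both populations every WT library lay above every KO library. The MPP3 WT group was the widest of the 4, with the 2 female mice above the 2 male mice.

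Espl1 fell in MPP3 cells of KO mice by 0.97 ± 0.17 (SE) on the log2 scale, to 0.512 of the WT level, with an FDR of 0.0647 in edgeR's quasi-likelihood test over 11831 genes. The threshold was an FDR of 0.1, which 8 of all genes passed (0.0676%). In MPP4 cells the difference was -0.69 ± 0.17, a level 0.62 of WT, with an FDR of 0.159, where 2 genes of 11831 passed (0.0169%). The 2 differences were not separated by the interaction test (difference -0.28, 95% interval -0.79 to 0.24, unadjusted p = 0.27). That test had no term for the mouse. Nor was Espl1 called in the interaction with the mouse as a replicate block, where 2 of 11831 genes were. The 2 libraries of each mouse were also summed, which gave 8 samples. The difference of KO against WT was then -0.81 ± 0.13 with an FDR of 0.111 by edgeR, against 7 genes called of 11831 (0.0592%). DESeq2 called Espl1 in both populations, with adjusted p of 7.21e-05 in MPP3 and 0.0189 in MPP4, and called 1.82% and 2.58% of all genes, respectively.

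The call in MPP3 depended on the libraries and terms of the model. It was lost when any 1 of 9 of the 16 libraries was left out (MPP3 WT 1 and 2, MPP3 KO 2, 3 and 4, MPP4 WT 4 and MPP4 KO 1, 3 and 4), with differences between -1.03 and -0.75 and an edgeR FDR up to 0.289. It was also lost with age as a term (-0.88, FDR 0.205), with MPP3 fitted alone (-0.97, FDR 0.353) and with the newer edgeR deviances (-0.95, FDR 0.103). The KO mice were on the whole younger than the WT mice.

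**Figure D1:**
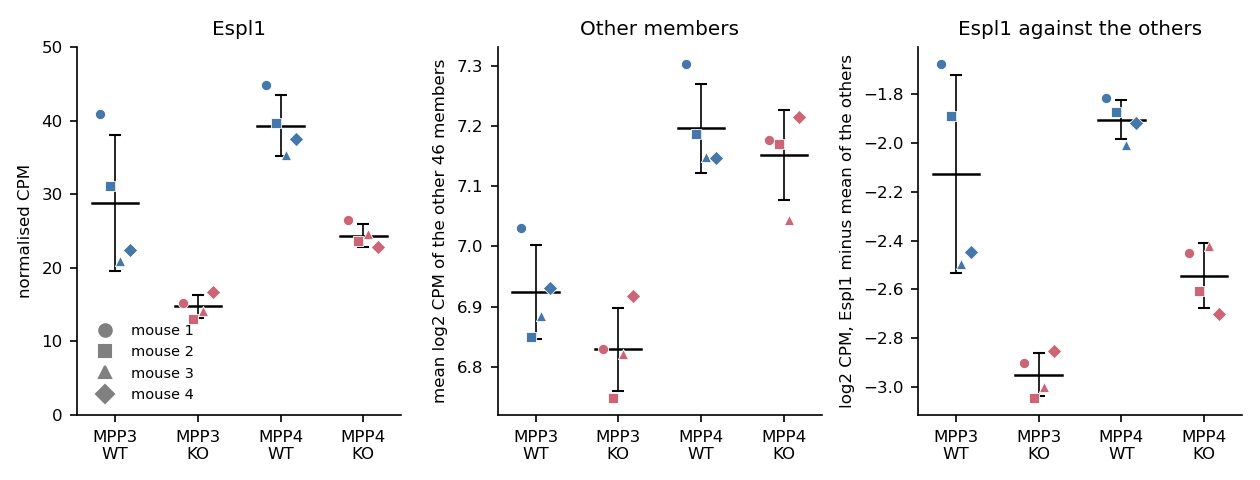
Left, normalised CPM of Espl1; middle, mean log2 CPM of the other 46 genes; right, log2 CPM of Espl1 minus that mean, each for 16 libraries in 4 groups, with the mouse number as symbol and the mean and SD of 4 libraries as bars. Espl1 lay between 13.0 and 16.7 CPM in MPP3 KO and between 20.9 and 41.0 CPM in MPP3 WT libraries, while the groups overlapped in the mean of the other genes in both populations.

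Of 12 plasma cell markers 9 were tested, and none was called in MPP3 KO against WT, with 6 of the 9 below 0, a median of -1.39, the highest at 0.35 and 4 at an unadjusted p under 0.05. A pair of them, chosen after their values were seen, stood apart between MPP3 libraries. Igkc, the immunoglobulin kappa constant chain, stood at 381, 361, 82.9 and 67.6 CPM in the MPP3 WT libraries, at 61.2 CPM in MPP3 KO 3 and at 0 counts in MPP3 KO 1, 2 and 4 (edgeR FDR 0.35). Jchain, which joins secreted antibodies, stood at 133, 76.0, 36.5 and 34.5 CPM in the MPP3 WT libraries and at 0, 0.266, 20.6 and 0.0754 CPM in the MPP3 KO libraries (edgeR FDR 0.324). The list of 12 plasma cell markers summed to 626 to 1683 CPM in MPP3 WT and to 463 to 848 CPM in MPP3 KO libraries, and none of the 12 was at 0 throughout either group.

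The 2 MPP3 WT libraries with the most Igkc were also the 2 with the most Espl1. Without both of these libraries, which left 2 male WT mice in MPP3, the Espl1 difference in MPP3 was -0.56 (edgeR FDR 0.463). All 4 MPP4 WT libraries stayed in that fit, where the MPP4 difference was -0.68 (FDR 0.0339). In MPP4, Igkc reached 17.4 CPM in one WT library, lay at 1.08 to 2.87 CPM in the other 3 and at 0 to 0.222 CPM in the KO libraries, and the MPP4 sums of the 12 markers overlapped (1521 to 1619 CPM in WT, 1426 to 1880 CPM in KO, with Iglc1 and Iglc2 at 0 counts in KO), while Espl1 did not overlap between the genotypes there. Between the populations of WT mice the sums did not follow Igkc. Jchain and Igkc were called higher in MPP3 than in MPP4 by edgeR, and Sdc1 and Ighm of the same list lower. The part of plasma cells in the Espl1 difference was not tested.

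The 6 genes of the sort gate summed with overlap to 2970 to 3088 CPM in MPP3 WT and 2677 to 2991 CPM in MPP3 KO, and without overlap to 3712 to 4122 CPM in MPP4 WT and 3311 to 3562 CPM in MPP4 KO. Of the 5 that were tested none was called in MPP3. In MPP4 all 5 had an unadjusted p under 0.05, as 1519 of all 11831 genes did, with 3 below 0 and a range from -0.42 to 0.44. Kit, the stem cell factor receptor, was one of the 2 genes called there (-0.42 ± 0.07, edgeR FDR 0.056).

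Of the remaining marker lists, the 10 erythroid genes summed to 1406 to 1591 CPM in MPP3 WT and 1069 to 1271 CPM in MPP3 KO. In MPP4 they summed to 987 to 1146 CPM in WT and 624 to 877 CPM in KO. The sums did not overlap between genotypes, but single genes went both ways. Of the 7 tested, none was called, and in each population 4 were below 0 and 1 had an unadjusted p under 0.05 by edgeR. Their differences ran from -0.63 to 0.41 in MPP3 (median -0.02) and from -0.84 to 0.32 in MPP4 (median -0.18). The 12 myeloid progenitor genes summed to 5795 to 9722 CPM in MPP3 WT and 6943 to 16310 CPM in MPP3 KO, and to 2336 to 3110 CPM in MPP4 WT and 2866 to 4308 CPM in MPP4 KO. None of the 12 was called, but in MPP3 all 12 had estimates above 0 in KO (median 0.84) and 10 an unadjusted p under 0.05, and in MPP4 the median was 0.48, with 5 at that level. The lymphoid progenitor list overlapped between genotypes in both populations, at 1078 to 1288 and 1111 to 1341 CPM in MPP3 and at 3227 to 3430 and 3349 to 3919 CPM in MPP4. Mature B cell, mature neutrophil and T and NK cell lists summed to at most 95.8, 96.6 and 17.7 CPM, with ranges that overlapped between genotypes, and Ly6g was at 0 counts in all MPP3, Ncr1 in all MPP4 and Pax5 in all MPP4 KO libraries. The part of these lists in the results was not tested.

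The genes next to Espl1 were looked at to see whether a stretch of chromosome 15 moved with it. Of the 5 other tested genes within 50000 bases, Rarg, Mfsd5, Pfdn5, Myg1 and Aaas, none was called in KO against WT in either population, and the smallest edgeR FDR was 0.278, for Rarg in MPP4. Rarg had differences of -0.24 ± 0.29 in MPP3 and -0.76 ± 0.29 in MPP4, the latter with an unadjusted p of 0.0176 by edgeR and an estimate below the -0.69 of Espl1. Mfsd5, the nearest of them upstream, had 0.46 ± 0.23 in MPP3 and 0.43 ± 0.23 in MPP4, and the other 3 genes lay between -0.06 and 0.20 in the 2 populations.

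None of the other 46 genes was called in KO against WT by edgeR in either population. Their differences had a median of -0.09 on the log2 scale in MPP3 and -0.05 in MPP4, beside -0.01 for all 11831 genes in each, and 36 and 31 of the 46 were below 0 (6055 and 6228 of all genes). At an unadjusted p under 0.05 there were 10 of the 46 in MPP3 and 4 in MPP4, where 1242 and 1519 of all 11831 genes had such a p. Espl1 had the lowest difference of the 47 genes in both populations. The next were Cdc25b in MPP3 (-0.30 ± 0.11), a phosphatase that activates Cdk1, and Bub1 in MPP4 (-0.30 ± 0.11), a kinase of the spindle checkpoint.

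The precision was enough to bound what was not called. The SE of the 46 differences had a median of 0.09, and all 46 unadjusted 95% intervals lay within a 1.5-fold change either way (0.585 on the log2 scale) in MPP3 and in MPP4. The interval of Espl1 in MPP3, -1.33 to -0.60, lay wholly below that range. In MPP4 the interval of Espl1 was -1.05 to -0.33 and reached into it.

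Within each library, log2 CPM of Espl1 minus the mean of the other 46 genes was -1.67, -1.89, -2.50 and -2.44 in the MPP3 WT libraries and -2.90, -3.05, -3.00 and -2.85 in those of KO mice. In MPP4 it was -1.82, -1.87, -2.01 and -1.92 in WT and -2.45, -2.60, -2.42 and -2.70 in KO. Set against its own library's mitotic genes, Espl1 was therefore lower in every KO than in every WT library of the same population. The mean of the other genes alone was 6.92 ± 0.08 (SD, n = 4) in MPP3 WT, 6.83 ± 0.07 in MPP3 KO, 7.20 ± 0.07 in MPP4 WT and 7.15 ± 0.08 in MPP4 KO, with overlap between genotypes in both.

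WT mouse 1, a female of 12 weeks, had the highest mean in both populations, 7.03 and 7.30. Without this mouse the median difference of the 47 genes was -0.04 in MPP3, where it had been -0.10, and 0.003 in MPP4, where it had been -0.06. Espl1 was then at -0.75 (edgeR FDR 0.103) in MPP3 and at -0.62 (FDR 0.149) in MPP4.

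**Figure D2:**
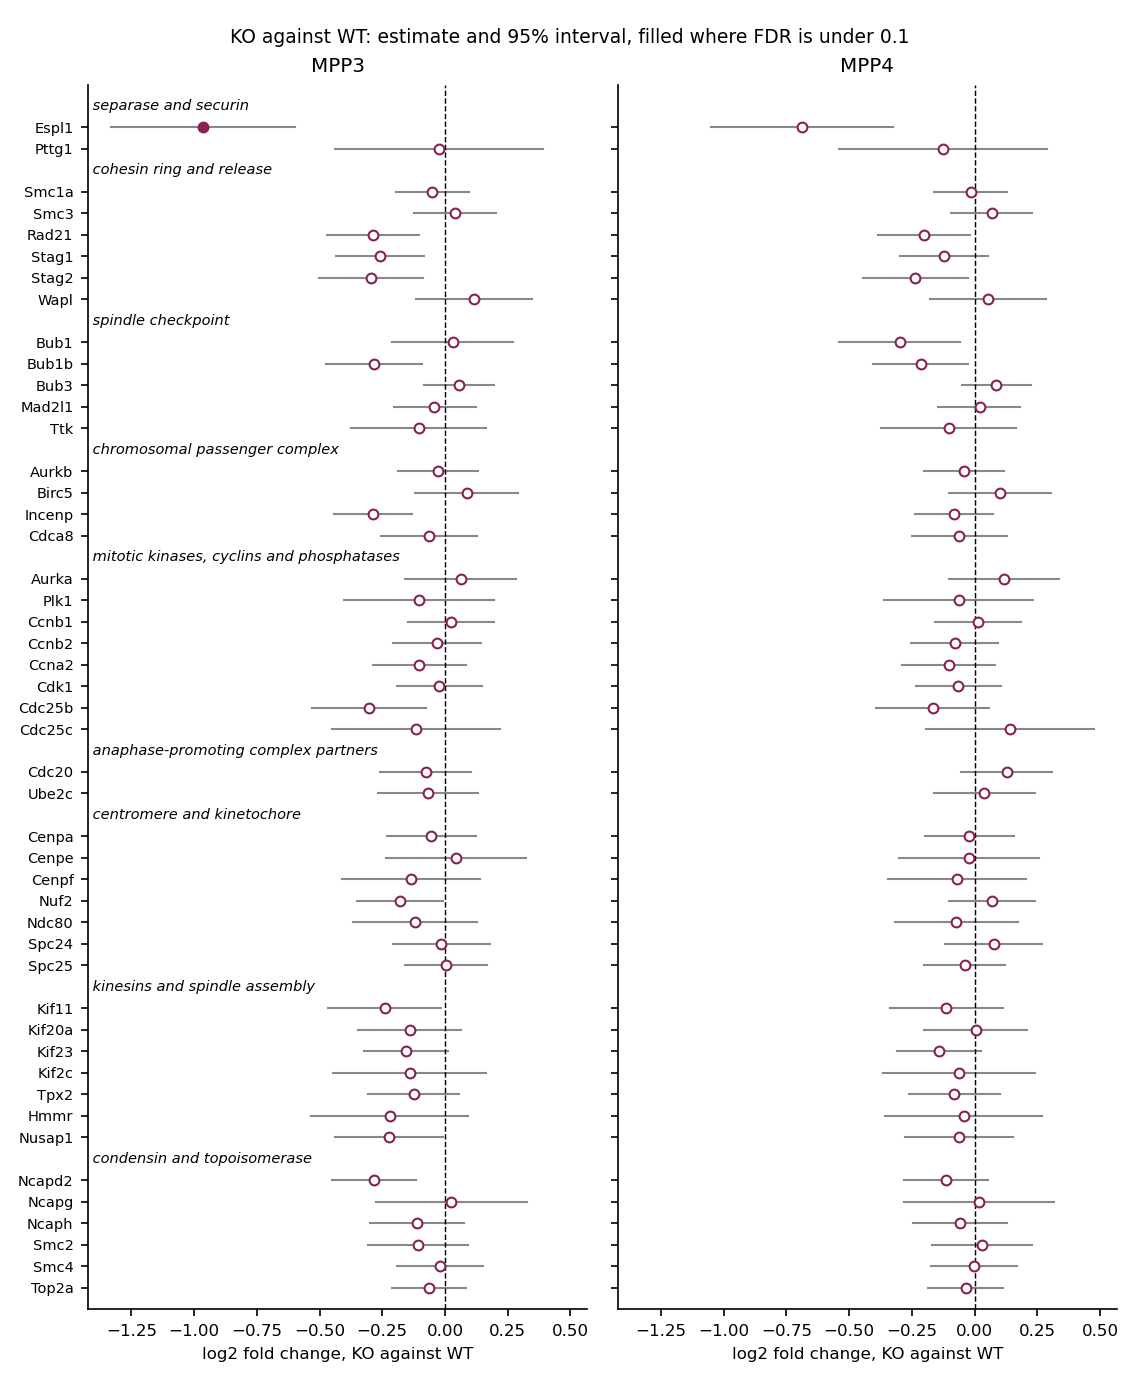
Log2 fold change of KO against WT in MPP3 (left) and MPP4 (right) for the 47 genes by role, with 95% intervals and filled points where the FDR was under 0.1. Espl1 in MPP3, at -0.97, is the single filled point, and the other 46 estimates lie between -0.30 and 0.14.

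Securin, the partner of separase, did not follow it in level. Pttg1 stood at 63.7, 47.4, 55.2 and 52.6 CPM in MPP3 WT and at 57.6, 59.4, 58.5 and 39.8 CPM in MPP3 KO, and at 72.2, 49.4, 61.9 and 67.7 CPM in MPP4 WT and 71.5, 71.8, 51.9 and 34.9 CPM in MPP4 KO. The genotypes overlapped in both populations, with differences of -0.02 (95% interval -0.44 to 0.39) and -0.13 (-0.54 to 0.29). KO mouse 4 was the lowest in both populations. These intervals are wide, since Pttg1 had the largest SE of the 47 genes, 0.196.

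None of the 6 cohesin genes was called, and their estimates spread to both sides of 0. Rad21, the subunit that separase cleaves, had -0.29 ± 0.09 in MPP3 (edgeR FDR 0.248) and -0.20 ± 0.09 in MPP4 (FDR 0.331). Stag2 and Stag1, alternative subunits that bind the ring to DNA, had -0.30 ± 0.10 and -0.26 ± 0.08 in MPP3 and -0.24 ± 0.10 and -0.12 ± 0.08 in MPP4. Smc1a and Smc3, the arms of the ring, had -0.05 ± 0.07 and 0.04 ± 0.08 in MPP3 and -0.02 ± 0.07 and 0.07 ± 0.08 in MPP4, and Wapl, which opens the ring, had 0.12 ± 0.11 and 0.05 ± 0.11. Smc1a, the most abundant of the 6 by CPM, stood at 337, 334, 379.6 and 384 CPM in MPP3 WT and at 345, 331, 339 and 370.5 CPM in MPP3 KO. In MPP4 it stood at 363, 357, 333 and 364 CPM in WT and at 348, 335, 327 and 393 CPM in KO, with overlap throughout.

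Lower values in KO without overlap were seen for 7 of the 47 genes in MPP3 (14.9%), where 2.41% of all genes showed this, namely Espl1, Rad21, Stag1, Stag2, Incenp, Cdc25b and Ncapd2. In MPP4 they were seen for 2 of the 47 (4.26%), Espl1 and Bub1b, where the share of all genes was 4.44%. Rad21, for example, stood at 162, 168, 151 and 156 CPM in MPP3 WT and at 149, 132, 121 and 120.5 CPM in MPP3 KO. Stag2 stood at 125, 123, 108 and 115 CPM in MPP3 WT and at 104, 88.0, 84.5 and 108 CPM in MPP3 KO, where MPP3 WT 3 (108.3) and MPP3 KO 4 (108.1) nearly met.

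The 5 spindle checkpoint genes had small differences in both directions. Bub1b (BubR1, which inhibits Cdc20) had -0.28 ± 0.09 in MPP3 and -0.21 ± 0.09 in MPP4, and in MPP4 stood at 181, 189.5, 164 and 178 CPM in WT and at 159, 158, 144.5 and 151 CPM in KO. Bub3, which brings Bub1 and BubR1 to kinetochores, stood at 351, 310.4, 324 and 335 CPM in MPP3 WT and 313, 329.7, 351 and 378 CPM in MPP3 KO, and at 368, 381, 362 and 363 CPM in MPP4 WT and 369.8, 396, 372 and 427 CPM in MPP4 KO. Mad2l1, the Cdc20 inhibitor Mad2, and Ttk, the kinase Mps1, had differences between -0.11 and 0.02 in the 2 populations.

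Of the chromosomal passenger complex, which corrects wrong attachments of chromosomes to the spindle, Incenp, its scaffold, had the smallest FDR of the 46 genes, 0.164 in MPP3 by edgeR, with -0.29 ± 0.07. Incenp stood at 169, 157, 141 and 151 CPM in MPP3 WT and at 124, 110.2, 131 and 141 CPM in MPP3 KO, with 140.7 in MPP3 WT 3 just above 140.6 in MPP3 KO 4. In MPP4 its difference was -0.08 ± 0.07. DESeq2 called Incenp (adjusted p = 0.0394) and Ncapd2 (0.0757) besides Espl1 in MPP3, and no gene besides Espl1 in MPP4. The kinase Aurkb, Birc5 (survivin) and Cdca8 (borealin) had differences between -0.06 and 0.10 in the 2 populations.

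Mitotic kinases, cyclins and phosphatases had differences in KO between -0.30 for Cdc25b in MPP3 and 0.14 for Cdc25c in MPP4. Ccnb2 stood at 283, 201, 226 and 241 CPM in MPP3 WT and at 233, 232, 241 and 224 CPM in MPP3 KO. Its partner kinase Cdk1 had -0.02 ± 0.08 in MPP3 and -0.06 ± 0.08 in MPP4. Cdc20 and Ube2c, which serve the anaphase-promoting complex as activator and as ubiquitin donor, had -0.08 ± 0.09 and -0.07 ± 0.10 in MPP3 and 0.13 ± 0.09 and 0.04 ± 0.09 in MPP4.

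The 7 centromere and kinetochore genes, among them Cenpa, the histone variant that marks centromeres, had differences between -0.18 and 0.08 in both populations. All 7 genes of the kinesin and spindle assembly group were below 0 in MPP3, between -0.24 for Kif11 and -0.12 for Tpx2, and none was called. Of the 6 genes of condensin and topoisomerase, which shape and untangle chromosomes, Ncapd2 had -0.28 ± 0.08 in MPP3 (edgeR FDR 0.195) and -0.11 ± 0.08 in MPP4, and the other 5 lay between -0.11 and 0.03. Top2a, the most abundant of the 47 by CPM, had -0.06 ± 0.07 and -0.04 ± 0.07.

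No gene of the 47 was called in the interaction, which asks whether the KO difference varied between populations, and none of 11831 was (0%), while 270 of all genes and 1 of the 47, Nuf2, had an unadjusted p under 0.05. DESeq2 called none of the 47 in the interaction either, where it called 8 of all 11831 genes. These edgeR counts are from the fit without the mouse. With the mouse as a replicate block, edgeR called none of the 47 and 2 of all genes, with 696 of all genes at an unadjusted p under 0.05. Nuf2, part of the kinetochore complex that grips microtubules, had -0.18 ± 0.08 in MPP3 and 0.07 ± 0.08 in MPP4 (difference -0.25, unadjusted p = 0.0453 by edgeR).

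A wider set of 126 genes of cell division, chosen by pathway, was read in the same fits. It held 102 further mitotic genes (11 for cohesin loading and protection, 18 for the anaphase-promoting complex, 3 for condensin II, 34 for kinetochore and checkpoint, and 36 for spindle, centrosome and cytokinesis) and 24 genes of S phase. None of the 126 was called in KO against WT in MPP3 or in MPP4 by edgeR. At an unadjusted p under 0.05 there were 12 and 14, beside the 1242 and 1519 of all genes given above, and the medians were -0.06 and -0.01 on the log2 scale. Condensin II, with 3 genes, had the lowest median of these lists, -0.34 in MPP3 and -0.22 in MPP4, with a smallest FDR of 0.242.

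The populations differed in the mitotic genes more widely than the genotypes did. In WT mice 24 of the 47 genes (51.1%) were lower in MPP3 than in MPP4 by edgeR and none was higher, where 8.33% of all genes were lower. In KO mice 32 of the 47 (68.1%) were lower and none was higher, where 9.18% of all genes were lower. The median difference was -0.28 in WT and -0.34 in KO on the log2 scale, while the median of all genes was -0.000387 and -0.00785. The lower genes were the same 23 in both genotypes, with Bub1 in addition in WT and with Bub3, Cdc20, Cdc25c, Espl1, Hmmr, Kif11, Nuf2, Rad21 and Spc24 in addition in KO. The interaction, which tests the difference between the genotypes, called none of these genes. With the mouse as a replicate block, Bub3, Cdc20, Espl1, Hmmr, Kif11 and Spc24 were called lower in WT as well and Stag2 was called higher, so that of the 9 additions in KO only Cdc25c, Nuf2 and Rad21 were then not called in WT.

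**Figure D3:**
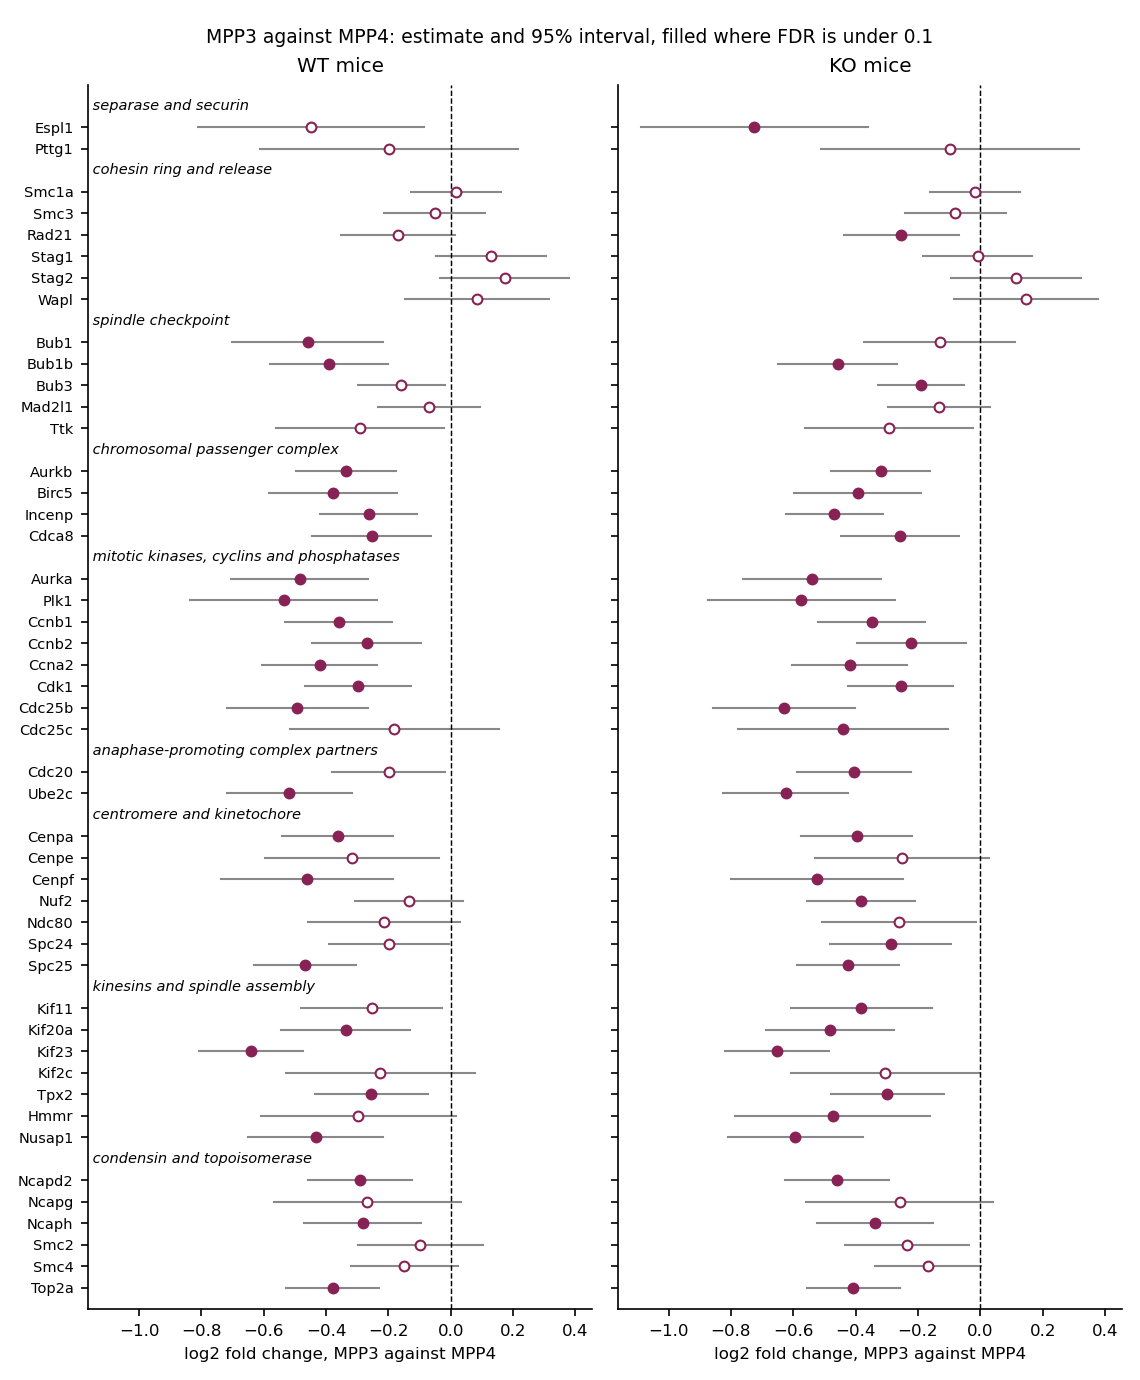
Log2 fold change of MPP3 against MPP4 in WT (left) and KO mice (right) for the 47 genes by role, with 95% intervals and filled points where the FDR was under 0.1. The filled points, 24 in WT and 32 in KO, all lie below 0, and of the cohesin genes Rad21 in KO is the single filled point.

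Of the differences in WT mice, those of Kif23, Plk1, Ube2c and Cdc25b were the 4 largest, followed closely by Aurka (-0.48 ± 0.10). Kif23, a kinesin of the central spindle, stood at 99.1, 88.5, 94.0 and 84.5 CPM in MPP3 and at 140.3, 143, 149.6 and 138 CPM in MPP4 of WT mice (-0.64 ± 0.08, edgeR FDR 3.37e-05). In KO mice it stood at 91.8, 80.6, 83.8 and 72.8 CPM in MPP3 and at 122.5, 122.4, 129 and 143 CPM in MPP4 (-0.65 ± 0.08, FDR 2.23e-05). The populations did not overlap in either genotype. Plk1, a kinase needed for entry into and passage through mitosis, had -0.54 ± 0.14 in WT and -0.57 ± 0.14 in KO.

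Ube2c stood at 140.4, 121, 107.5 and 122 CPM in MPP3 and at 185.5, 177, 178 and 163 CPM in MPP4 of WT mice (-0.52 ± 0.10, edgeR FDR 0.00127). Cdc25b stood at 31.8, 33.8, 33.5 and 31.2 CPM in MPP3 and at 52.8, 45.3, 44.7 and 40.5 CPM in MPP4 of WT mice (-0.49 ± 0.11, FDR 0.00509), with every MPP4 library above every MPP3 library. In KO mice the 2 genes had -0.62 ± 0.10 and -0.63 ± 0.11.

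By role, the lower level in MPP3 was found in all 4 genes of the chromosomal passenger complex in both genotypes and in 7 of 8 mitotic kinases, cyclins and phosphatases in WT and 8 of 8 in KO. It was found in 4 of 7 kinesin and spindle assembly genes in WT and 6 of 7 in KO, in 3 and 5 of 7 centromere and kinetochore genes, in 3 of 6 condensin and topoisomerase genes in both, in 2 of 5 spindle checkpoint genes in both, and in 1 and 2 of the 2 partners of the anaphase-promoting complex. Of the 6 cohesin genes none was called in WT, with a median of 0.05, and Rad21 alone in KO (-0.25 ± 0.09, edgeR FDR 0.0661). These counts are from the fit without the mouse. With the mouse as a replicate block, 1591 of all 11831 genes were lower in MPP3 in WT and 1710 in KO. In that fit the lower genes were 4 of 6 for condensin and topoisomerase in WT and 6 of 6 in KO, and 4 and 3 of 5 for the checkpoint. They were 7 of 7 kinesin and spindle assembly genes in both, and 5 and 7 of 7 for centromere and kinetochore. The cohesin genes had Stag2 higher in WT and Rad21 lower in KO.

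Cohesin acts outside mitosis as well, and its genes are transcribed through the cell cycle. Of the SMC subunits of condensin, Smc2 had -0.10 ± 0.09 and Smc4 -0.15 ± 0.08 in WT, and neither was called there, while both were called lower in KO with the replicate block. Of the non-SMC subunits Ncapd2 (-0.29 ± 0.08) and Ncaph (-0.28 ± 0.09) were called in WT, and Ncapg (-0.27 ± 0.14) was called with the replicate block and not without it.

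The most abundant genes of the roles differed in how far the populations overlapped. Top2a stood at 494, 475.5, 521 and 551.5 CPM in MPP3 WT and at 718, 679, 613 and 645 CPM in MPP4 WT, and at 485.5, 450.3, 494 and 524 CPM in MPP3 KO and 691, 631, 587 and 682 CPM in MPP4 KO. Neither genotype showed an overlap between the populations. Cdca8 stood at 245, 194, 195 and 201 CPM in MPP3 WT and at 277, 239, 240.3 and 238.5 CPM in MPP4 WT, and at 178, 182.5, 219 and 219 CPM in MPP3 KO and 231, 236, 230.3 and 257 CPM in MPP4 KO. Here WT mouse 1 was the highest of its group in both populations, and its MPP3 library lay above 3 MPP4 libraries of WT mice.

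Cdc20 stood at 242.5, 199, 202.5 and 235 CPM in MPP3 WT and at 258, 249.8, 239.8 and 261 CPM in MPP4 WT, and at 178, 214, 217 and 225 CPM in MPP3 KO and 243, 296.5, 273.5 and 290.5 CPM in MPP4 KO. Its populations overlapped in WT and not in KO mice. Cenpa stood at 184, 147, 156 and 158 CPM in MPP3 WT and at 209, 180.2, 229 and 211 CPM in MPP4 WT, and at 161, 149.7, 167 and 143 CPM in MPP3 KO and 221.5, 204, 198 and 193 CPM in MPP4 KO. Kif11 stood at 179.8, 199, 173 and 196 CPM in MPP3 WT and at 218, 229.6, 228.5 and 216 CPM in MPP4 WT, and at 175, 120.5, 157 and 181 CPM in MPP3 KO and 209.8, 187, 189 and 239 CPM in MPP4 KO. For Kif11 no population overlap was seen in either genotype, although without the replicate block the test called it in KO (-0.38 ± 0.11) and not in WT (-0.25 ± 0.11).

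**Figure D4:**
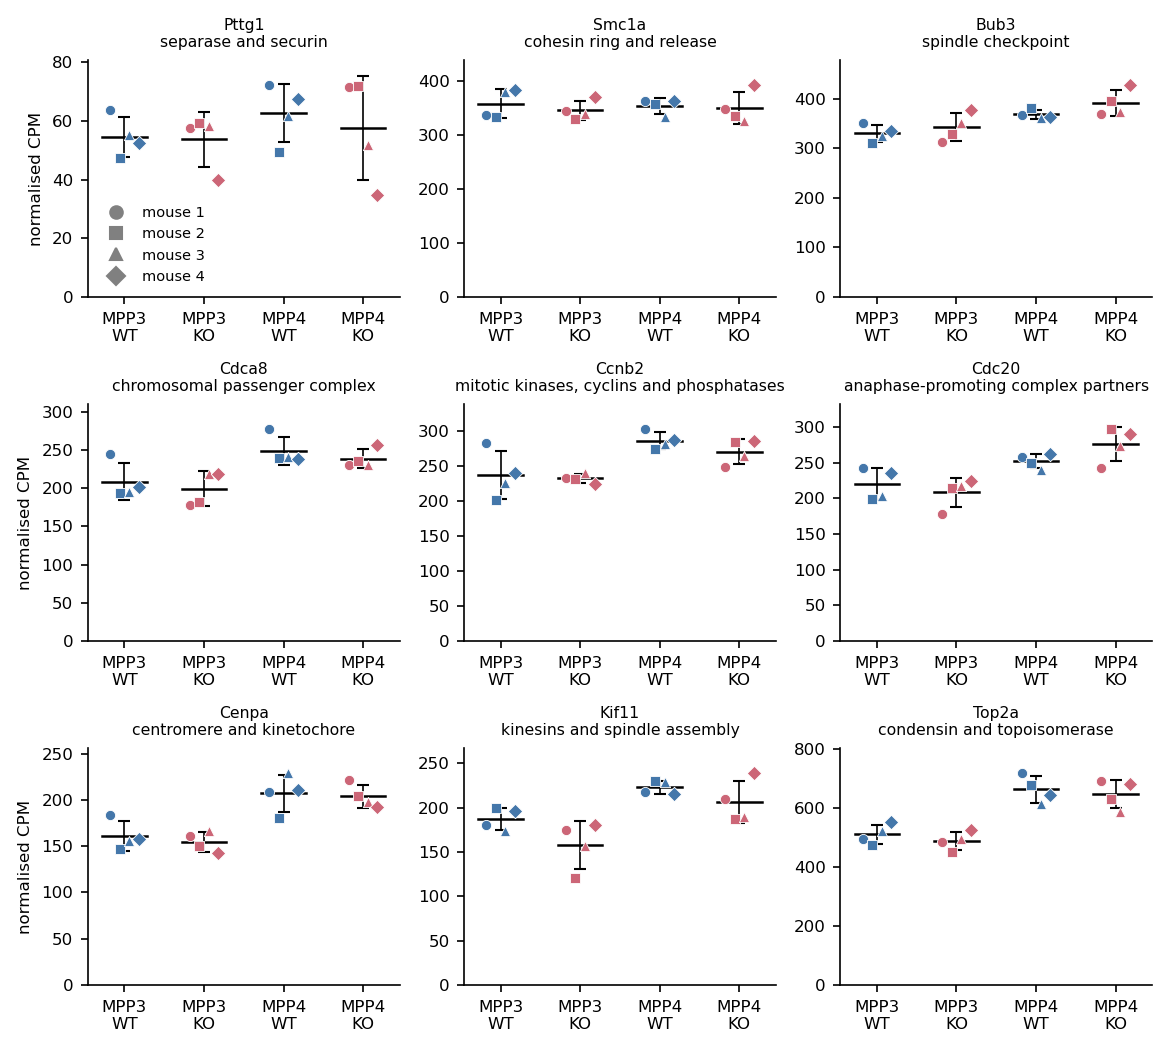
Normalised CPM in 16 libraries for the most abundant gene of each of 9 roles, with the mouse number as symbol and the mean and SD of 4 libraries as bars; each panel starts at 0. Top2a lies at 450.3 to 551.5 CPM in MPP3 and at 587 to 718 CPM in MPP4 libraries, while Smc1a and Pttg1 overlap across all 4 groups.

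For Espl1 the population difference was -0.45 ± 0.17 in WT (edgeR FDR 0.113) and -0.72 ± 0.17 in KO (FDR 0.00881). MPP3 WT 1, at 41.0 CPM, lay above 3 of the 4 MPP4 WT libraries, and the other 3 MPP3 WT libraries lay below all of them. With the mouse taken as a replicate block the WT difference was -0.49 ± 0.12 with an FDR of 0.0122.

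The wider set was read for the population difference as well, beside the 8.33% of all genes that were lower in MPP3 in WT and the 9.18% in KO mice. In WT mice 15 of the 102 further mitotic genes were lower in MPP3 by edgeR and 1 was higher, Cenpu, with a median of -0.11, and none of the 24 S phase genes was called, with a median of 0.01. In KO mice 26 of the 102 were lower and 1 was higher, Esco1, and 2 of the 24 S phase genes, Gins2 and Uhrf1, were lower. Foxm1, a transcription factor of G2/M genes, had the largest fall of these genes in both genotypes, -0.73 ± 0.15 in WT (FDR 0.00333) and -0.93 ± 0.15 in KO (FDR 0.00039). Its KO against WT difference was 0.03 ± 0.15 in MPP3 and 0.22 ± 0.15 in MPP4.

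Promoters of the genes that were lower in MPP3 of WT mice were compared with the rest by count. Of the 19 with a window, 13 held both CCAAT and TTTGAA, and of the 18 that were not called, among them Espl1, 8 held both. These counts are a description of the letters in the windows.

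Within groups, the genes that varied most like Espl1 from mouse to mouse were Bub1b (r = 0.812), Ncapd2 (0.719), Incenp (0.695), Kif2c (0.663) and Hmmr (0.606), as Pearson's r of log2 CPM over 16 libraries after the group means had been taken off. The points share libraries and mice, so r is given as a description. The median r of Espl1 with the other 46 genes was 0.293, and that of all 1081 pairs of the 47 genes was 0.275. The lowest r was that of Wapl (-0.531). Kif2c, a microtubule depolymerase, and Hmmr, a spindle assembly factor, had KO differences of -0.14 ± 0.14 and -0.22 ± 0.15 in MPP3.

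Sex was examined because Smc1a and Stag2 lie on the X chromosome and because the female WT mice had the most Espl1 in MPP3. With counts summed per mouse, none of the 47 genes differed between female and male mice by edgeR, where 1.52% of all genes did, while 6 of the 47 and 2026 of all 11831 genes had an unadjusted p under 0.05. DESeq2 called none of the 47, where it called 970 of all 11831 genes. Smc1a differed by -0.001 ± 0.06 (FDR 0.998) and Stag2 by 0.07 ± 0.09 (FDR 0.711), female against male. Espl1 differed by 0.18 ± 0.12 (FDR 0.456), and by 0.43 ± 0.16 (FDR 0.237) in the MPP3 and 0.07 ± 0.12 (FDR 0.859) in the MPP4 libraries alone. In KO mice the female MPP3 libraries stood at 14.1 and 16.7 CPM and the male ones at 15.2 and 13.0 CPM.

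Exons of 13 of the 47 genes overlap another gene, among them Cdca8, Plk1, Ccna2, Cdc25b, Cdc20, Ube2c, Kif20a and Top2a. The library kit does not mark strand, so reads from the 2 strands cannot be told apart. Espl1 was not among the 13.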

How the data were processed

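Poly(A) RNA of sorted cells was made into libraries with a low-input kit and sequenced as paired reads of 100 bases. The authors used STAR 2.7.3a for alignment to mm10, then featureCounts 2.0.0 for gene counts. They deposited raw counts per population, and a normalised signal, in which the authors divided counts by DESeq2 1.28.1 size factors. For the 47 genes that table lay within 0.00602% of raw counts over size factors and was not used further. The annotation release is not given in the sources used here. GENCODE symbols (GRCm38) matched 47310 of 47937 identifiers.

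Raw counts of 16 libraries entered 1 fit in edgeR 4.0.16 (R 4.3.3) with TMM and a quasi-likelihood F-test. The 11831 genes whose group mean exceeded 100 counts at least once were tested, and an FDR under 0.1 was called. Mean levels used log2 CPM with a prior count of 1. The models were tested on simulated data. Alternatives included DESeq2 1.42.0, other filters, sex or age as a term, and left-out libraries. Library values are given for Espl1, for the most abundant gene of each role (Ccnb2 in MPP3 only) and for further examples chosen after their values were seen. Other genes are given by their differences or counts.

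Same-numbered MPP3 and MPP4 libraries of a genotype share sex and age in the labels, and their deviations from group means correlated in all 8 pairs (r = 0.276 to 0.517), so mouse numbers paired the populations. WT and KO mice shared only numbers. Replicates are separate mice by the labels. The 47 genes, the other lists and the tests were chosen with earlier results of these data known.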

Additional observations from a re-analysis of the deposited data

Results flagged for a closer look

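In 12 of the 188 groups of 4 libraries (47 genes in 4 groups), 1 library lay apart from the other 3 by Dixon's test at its 95% level, where chance gives about 1 in 20 groups. Values are CPM. Library MPP3 WT 1 was the highest for Cdca8 at 244.6 (others 194 to 201), for Plk1 at 115.8 (others 80.5 to 84.6) and for Spc25 at 92.06 (others 78.9 to 79.5), and the MPP4 library of the same mouse was the highest for Cdca8 at 277.1 (others 238.5 to 240.3). This mouse also had the highest mean of the other 46 genes in both populations.

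In the MPP3 KO group, mouse 4 was the lowest for Pttg1 at 39.8 (others 57.6 to 59.4) and the highest for Cdc25c at 25.37 (others 24.2 to 24.3), mouse 3 was the lowest for Mad2l1 at 117.7 (others 141 to 143.5) and for Ccna2 at 89.2 (others 96.8 to 98.3), and mouse 2 was the highest for Ccnb1 at 175.6 (others 158 to 159.7). In the MPP4 KO group, mouse 2 was the highest for Plk1 at 152.7 (others 115 to 119), mouse 4 for Cenpf at 136.3 (others 102 to 107.5), and mouse 1 was the lowest for Spc24 at 168.4 (others 186 to 188). No interaction between genotype and population was called for any of the 47 genes, so no difference between populations is listed here.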

How the results depend on the processing

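In MPP3 KO against WT, 1 gene of the 47 was called. The count was 3 with DESeq2 (Espl1, Incenp and Ncapd2), 2 with sex as a term (Espl1 and Incenp), where calls over all genes went from 8 to 215 and 58, and 0 with age as a term, with MPP3 alone, without mouse WT 1, with newer edgeR deviances, without MPP3 WT 1 and 2, and with both populations summed per mouse, where calls over all genes were 1, 1, 8, 5, 1 and 7 in this order, and it ranged from 0 to 2 over left-out libraries. Espl1 in MPP3 lost its call with age as a term (-0.88), MPP3 alone (-0.97), without mouse WT 1 (-0.75), with newer deviances (-0.95), without MPP3 WT 1 and 2 (-0.56) and summed per mouse (-0.81), and ranged from -1.09 to -0.75 over left-out libraries.

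In MPP4 KO against WT the count was 0, and was 1, Espl1, with DESeq2 (-0.68, adjusted p = 0.0189), sex as a term (-0.68, edgeR FDR 0.0644), MPP4 alone (-0.69, FDR 0.0728) and without MPP3 WT 1 and 2 (-0.68, FDR 0.0339), where calls over all genes went from 2 to 305, 183, 20 and 97. Over left-out libraries the count was 0 to 1 and Espl1 ranged from -0.74 to -0.62. Espl1 in WT MPP3 against MPP4 was called with DESeq2 (-0.45), sex as a term (-0.47), the replicate block (-0.49), without mouse WT 1 (-0.59), with newer deviances (-0.46) and without MPP3 WT 1 and 2 (-0.85), and ranged from -0.67 to -0.32 over left-out libraries. For female against male the count was 0, and 0 to 1 over left-out mice, where calls over all genes ran from 13 to 577, with the 1 (Hmmr) at 577, without KO mouse 3.

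With the replicate block, by mouse, 35 genes differed between populations in WT (34 lower and Stag2 higher in MPP3) and 39 in KO, against 24 and 32 without it. Over all genes the block took the calls from 1790 to 2930 in WT and from 2116 to 3346 in KO. Blocking WT with KO mice of the same number left Espl1 as the 1 gene called in MPP3 (-0.93) and 0 in MPP4, while calls over all genes went from 8 to 29 and from 2 to 23. These paired numbers did not deviate together (r = -0.432 to 0.04). The alternatives with summed mice, newer deviances and without MPP3 WT 1 and 2 were chosen after seeing the data. No called difference changed sign in any alternative. The causes of these shifts were not tested. The lowest count of Espl1 in a library was 391.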
